A study of Homo sapiens with 18 samples.

Results

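The mitotic kinases and chromosomal passengers were AURKA, AURKB, PLK1, PLK4, BUB1, BUB1B, TTK, NEK2, BIRC5 and INCENP. These 10 genes were taken by symbol from the 26249 genes of each library, and every one of them had a row in all 18 libraries. Their messenger RNA was followed in cells kept for 24 h in DMSO, in 100 nM or in 1000 nM of YKL-5-124, an inhibitor of CDK7, the kinase that activates the cell cycle CDKs and phosphorylates RNA polymerase II. The 6 groups were AMO1 in DMSO, at 100 nM and at 1000 nM, and XG1 in DMSO, at 100 nM and at 1000 nM, with 3 libraries in each. Both lines are labelled as multiple myeloma, the series title calls them resistant, and no genetic change or other agent is given for any group. The labels number the replicates without saying where they came from, and a p-value here covers only how far these libraries lie apart, which may be technical.

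Entry into mitosis is driven by CDK1 with the Aurora and Polo-like kinases, and the order of its later steps is kept by kinases that sit on centromeres, kinetochores and centrosomes. AURKB works in the chromosomal passenger complex, in which INCENP is the scaffold and BIRC5 (survivin) helps to place the kinase on centromeres, while BUB1, BUB1B and TTK hold back anaphase until chromosomes are attached. The genes for these proteins are transcribed mainly in G2 and M phase, through promoter elements named CHR and CCAAT boxes, and fall silent in cells that stop dividing.

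Values were FPKM, read counts scaled by gene length and by library size. The deposited scale held summed spike-in RNA nearly level, with group means from 171365 to 184681 FPKM, whereas summed gene FPKM was 62.2% of DMSO at 100 nM and 39.6% at 1000 nM in AMO1, and 81.0% and 73.3% in XG1. Calls and changes of the 10 genes are therefore also summarised on a relative scale, after division by a size factor per library that sets the median gene level. A change given without a scale is on the deposited one. A decrease in bulk RNA can come from fewer cells of a kind or from less RNA per cell, and these cannot be told apart. Among replicates the Spearman correlation was 0.931 to 0.974 over genes that reached 1 FPKM in 3 or more libraries of the line, with XG1 100 nM replicate 2 in the lowest pairs. Over all genes, floor values included, it was 0.817 to 0.973, and the lowest pairs then held XG1 100 nM replicate 3. AMO1 1000 nM replicate 2 had the lowest summed gene FPKM, 431965.

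The 10 plasma cell marker genes summed to 8363 to 9397 FPKM in AMO1 in DMSO, and all 10 had a mean of at least 1 FPKM. In XG1 in DMSO they summed to 91.6 to 145 FPKM, and 5 of 10 had a mean of at least 1 FPKM. The others, IRF4, PRDM1, CD38, SLAMF7 and POU2AF1, were under 1 FPKM in every library of that group. The 11 erythroid markers summed to 4569 to 4946 FPKM in XG1 in DMSO, with 11 of 11 at a mean of at least 1 FPKM. In AMO1 in DMSO they summed to 6.88 to 9.55 FPKM, with 2 of 11 at such a mean. The XG1 libraries thus went against their label as plasma cells, and they are called XG1-labelled below. Of the other marker lists, 3 of 7 myeloid genes and 1 of 7 T and NK cell genes reached a mean of 1 FPKM in XG1 in DMSO, and 0 of 7 and 1 of 7 did in AMO1.

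The promoters are shown because the 10 genes fell together in AMO1 and belong to a class whose promoters carry known letters. RefSeq (GRCh38.p14) gave start sites for 7 of the 10 members, AURKB, PLK1, PLK4, BUB1, BUB1B, NEK2 and INCENP. Windows of 300 bases, from 250 before to 50 after the start, were searched on both strands for the CHR letters TTTGAA or TTCGAA and for CCAAT, motifs that do not overlap each other. A CHR match stood in a window of 5 of the 7 members, against 16.4% of all 35116 such windows, and CCAAT in 6 of 7, against 34.6%. Some members have more than 1 window, so their counts per gene and the shares per window are not on the same footing. At least 2 CCAAT matches stood in 3 members, NEK2, BUB1 and INCENP, against 10.8% of windows. The 150 bases before the start of 5 members follow, 5′ to 3′ on the gene's strand, with CHR letters, CCAAT and its reverse complement ATTGG in capitals.
PLK1, chr16:23678739-23678888, plus strand: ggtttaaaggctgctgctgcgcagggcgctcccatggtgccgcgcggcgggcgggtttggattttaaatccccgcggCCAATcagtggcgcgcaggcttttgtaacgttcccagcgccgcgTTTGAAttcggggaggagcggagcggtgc
BUB1B, chr15:40160919-40161068, plus strand: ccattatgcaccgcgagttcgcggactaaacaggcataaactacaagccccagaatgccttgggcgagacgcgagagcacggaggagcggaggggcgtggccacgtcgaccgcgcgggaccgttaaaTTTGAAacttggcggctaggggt
INCENP, chr11:62123861-62124010, plus strand: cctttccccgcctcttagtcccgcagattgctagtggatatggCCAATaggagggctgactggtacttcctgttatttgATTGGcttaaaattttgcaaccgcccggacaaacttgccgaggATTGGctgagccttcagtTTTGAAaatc
NEK2, chr1:211675622-211675771, minus strand: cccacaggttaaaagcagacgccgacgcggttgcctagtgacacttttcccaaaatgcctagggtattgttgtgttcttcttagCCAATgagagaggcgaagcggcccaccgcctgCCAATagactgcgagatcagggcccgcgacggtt
BUB1, chr2:110678064-110678213, minus strand: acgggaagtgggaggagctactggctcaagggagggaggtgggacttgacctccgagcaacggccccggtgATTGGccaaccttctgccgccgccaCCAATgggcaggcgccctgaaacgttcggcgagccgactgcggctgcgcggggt
In PLK1, BUB1B and INCENP the first base of TTTGAA lay 29, 23 and 10 bases before the start. The CHR letters of BUB1 and PLK4 lay just after the start, in these short stretches, where the PLK4 match is on the other strand.
BUB1, chr2:110678049-110678070, minus strand: gcggggtaTTCGAAtcggcggc
PLK4, chr4:127880923-127880942, plus strand: gggagattTTCAAAatggga
A match is a run of letters and not a measured binding site. CCAAT was also found in windows of AURKB and PLK4.

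In AMO1, all 10 genes fell at both doses. Group means at 100 nM were 11.8% to 30.0% of DMSO, with a median of 22.4%, and at 1000 nM 4.97% to 15.4%, with a median of 8.23%. In XG1-labelled libraries the means were 42.2% to 101% at 100 nM, median 66.2%, and 22.6% to 72.6% at 1000 nM, median 36.9%. By limma on log2(FPKM + 1), with Benjamini-Hochberg adjusted p under 0.05 over all tested genes, 10 of 10 were lower in AMO1 at each dose, and 8 of 10 at 1000 nM and 3 of 10 at 100 nM in XG1. Of all tested genes, 65.7% were lower in AMO1 at 1000 nM, 29.5% in AMO1 at 100 nM, 13.2% in XG1 at 1000 nM and 10.0% in XG1 at 100 nM. The AMO1 count at 1000 nM stands beside a majority of all tested genes that were lower too. The members' median change there was -2.62, against -0.77 over all tested genes. The medians were -1.81 against -0.35 in AMO1 at 100 nM, -1.38 against -0.15 in XG1 at 1000 nM, and -0.60 against -0.15 in XG1 at 100 nM. Relative-scale lower calls were 10, 10, 8 and 2 in the same order, against 24.1%, 17.0%, 10.3% and 7.25% of tested genes. The decreases were smaller there, in AMO1 at 1000 nM from -1.48 for INCENP and BUB1 to -3.32 for AURKB, with a median of -1.96 against 0.03 over all tested genes, and in XG1 at 1000 nM a median of -1.20 against 0.01. All 10 passed the filter on low values in each line (1 FPKM or more in 3 or more libraries), while in AMO1 only 6 of 10 were at 1 FPKM or more in every library. PLK4 and TTK reached 1 FPKM in 4 AMO1 libraries, those in DMSO and 100 nM replicate 3. They thus passed the filter in AMO1 only through DMSO, where they were high. The XG1 100 nM count was 1 without DMSO replicate 3 or 100 nM replicate 3. It was 2 without DMSO replicate 1 or 2, 100 nM replicate 2 or 1000 nM replicate 2, and 4 without 100 nM replicate 1. AURKB was called in all of these. The relative-scale values of AURKA (0.11) and INCENP (0.13) in XG1 at 100 nM were above 0, and neither passed.

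**Figure D1:**
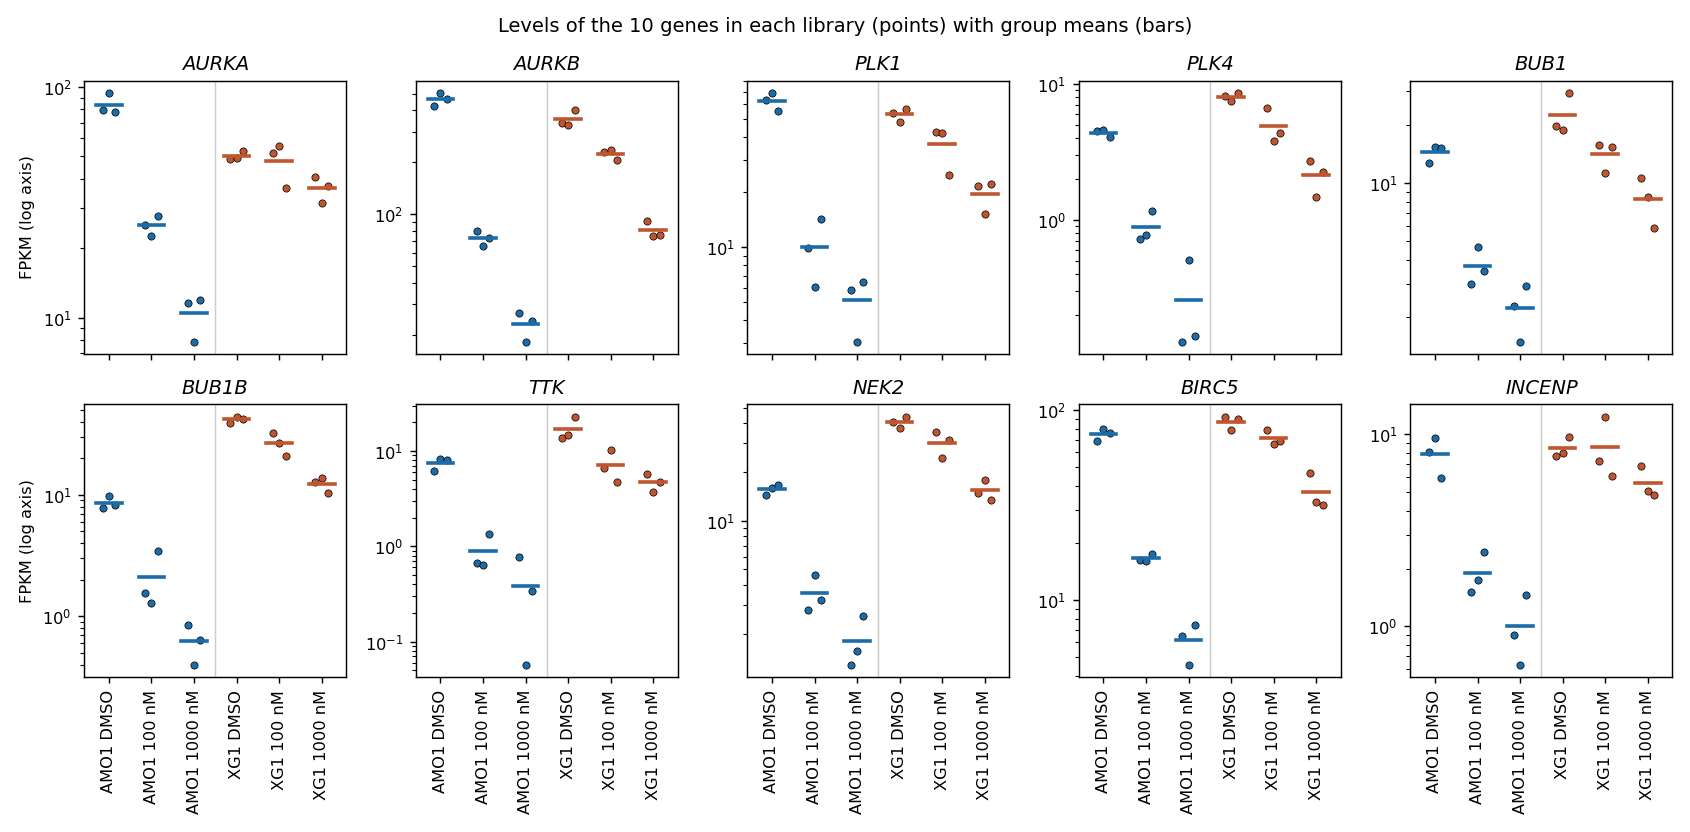
FPKM of each gene (log axis) in the 18 libraries, by line and dose, with points for libraries and bars for means of 3. All 10 genes lie lower in both AMO1 dose groups than in every AMO1 DMSO library, and in XG1 the 100 nM points of AURKA, BIRC5 and INCENP overlap those of DMSO. The share of all genes without overlap was not counted, so the separation cannot be read as particular to these 10. By the limma test, a different measure, 65.7% of tested genes were called lower in AMO1 at 1000 nM and 29.5% at 100 nM.

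AURKB, the catalytic subunit of the chromosomal passenger complex, had the largest fitted decrease of the 10 in AMO1 at both doses and in XG1 at 1000 nM. The 1 FPKM added before the log2 shrinks the changes of genes at low levels. As shares of DMSO in AMO1, TTK was at 11.8% and AURKB at 15.7% at 100 nM. At 1000 nM AURKB was at 4.97%, TTK at 5.16% and PLK4 at 5.89%. On the relative scale TTK was at 9.36% and AURKB at 10.1% at 1000 nM. The AMO1 values of AURKB were 424, 502 and 463 FPKM in DMSO, 79.6, 65.8 and 72.4 at 100 nM, and 26.8, 18.3 and 24.0 at 1000 nM. The 3 groups did not overlap, and each dose lay under the one before it. The log2 change was -2.66 (SE 0.20, n = 3 per group, limma adjusted p = 1.64e-06) at 100 nM and -4.28 (SE 0.20, adjusted p = 4.2e-09) at 1000 nM, where the mean was 4.97% of DMSO. In XG1-labelled libraries AURKB was 339, 331 and 401 FPKM in DMSO, 229.8, 237 and 206 at 100 nM, and 91.7, 74.7 and 75.8 at 1000 nM. Here too the 3 groups did not overlap, with a change of -0.66 (SE 0.13, adjusted p = 0.00889) at 100 nM and -2.13 (SE 0.13, adjusted p = 7.39e-06) at 1000 nM.

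BIRC5, which tethers the complex to centromeric histone marks and is also a member of the inhibitor of apoptosis family, was 68.6, 79.5 and 75.9 FPKM in AMO1 in DMSO, 16.3, 16.0 and 17.4 at 100 nM and 6.47, 4.56 and 7.37 at 1000 nM. These groups were far apart, with changes of -2.10 (SE 0.20, limma adjusted p = 8e-06) and -3.43 (SE 0.20, adjusted p = 1.95e-08). XG1-labelled values were 92.5, 78.3 and 89.4 FPKM in DMSO, 79.0, 66.6 and 69.1 at 100 nM and 46.6, 32.8 and 31.9 at 1000 nM. At 100 nM the ranges overlapped and the change did not pass (-0.27, SE 0.16, adjusted p = 0.295), whereas it fell at 1000 nM (-1.22, SE 0.16, adjusted p = 0.000746).

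INCENP, the scaffold that binds and activates AURKB, fell in AMO1 and did not pass the test in XG1. In AMO1 it was 8.12, 9.51 and 5.95 FPKM in DMSO, 1.51, 1.74 and 2.43 at 100 nM and 0.906, 0.629 and 1.46 at 1000 nM, and both doses lay below DMSO. The changes were -1.61 (SE 0.22, limma adjusted p = 0.000133) and -2.15 (SE 0.22, adjusted p = 2.46e-06). Its XG1-labelled values were 7.74, 8.0 and 9.73 FPKM in DMSO, 7.23, 12.3 and 6.09 at 100 nM and 6.80, 5.04 and 4.81 at 1000 nM. The 100 nM group straddled DMSO, with replicate 2 highest, whereas all 3 libraries at 1000 nM lay below DMSO. Neither dose passed the test (-0.04, SE 0.25, adjusted p = 0.94 at 100 nM and -0.54, SE 0.25, adjusted p = 0.169 at 1000 nM). The mean at 1000 nM was 65.4% of DMSO, against 22.6% for AURKB and 42.7% for BIRC5, and these genes were not tested against each other.

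AURKA, which matures centrosomes and builds the bipolar spindle, fell in AMO1 and did not pass the test in XG1. In AMO1 it was 79.6, 93.9 and 78.2 FPKM in DMSO, 25.3, 22.5 and 27.6 at 100 nM and 11.6, 7.86 and 11.9 at 1000 nM. No groups overlapped, and the changes were -1.70 (SE 0.21, limma adjusted p = 5.07e-05) and -2.90 (SE 0.21, adjusted p = 8.93e-08). The XG1-labelled libraries held 48.6, 49.4 and 52.6 FPKM in DMSO, 52.0, 55.5 and 36.5 at 100 nM and 40.6, 31.4 and 37.4 at 1000 nM. Its 100 nM values spread around those of DMSO (-0.09, SE 0.17, adjusted p = 0.786). At 1000 nM all 3 libraries lay below DMSO at 72.6% of its mean, but the change of -0.46 (SE 0.17, adjusted p = 0.0936) missed the threshold. With XG1 100 nM replicate 3 left out of the fit this change passed (adjusted p = 0.028).

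PLK1 acts beside AURKA at mitotic entry, on centrosomes and kinetochores, and fell in both lines. In AMO1 it was 63.2, 68.8 and 55.2 FPKM in DMSO, 9.89, 6.05 and 14.3 at 100 nM and 5.88, 3.06 and 6.50 at 1000 nM. The 2 doses overlapped each other and lay far below DMSO, at -2.58 (SE 0.29, limma adjusted p = 2.46e-05) and -3.41 (SE 0.29, adjusted p = 4.3e-07). XG1-labelled libraries held 54.0, 48.3 and 56.7 FPKM in DMSO, 42.5, 41.8 and 24.8 at 100 nM and 21.6, 15.2 and 22.0 at 1000 nM. Every treated library was under DMSO, but the change passed at 1000 nM (-1.41, SE 0.22, adjusted p = 0.00175) and not at 100 nM (-0.57, SE 0.22, adjusted p = 0.113), where replicate 3 was low. Exons of PLK1 overlap those of ERN2 and of AC008870.3, an antisense gene that has no row, on the other strand. ERN2 was listed at 0.0709 to 0.319 FPKM over the 18 libraries.

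BUB1, a kinetochore kinase that marks centromeric histone H2A for the passenger complex, was 12.7, 15.4 and 15.2 FPKM in AMO1 in DMSO, 2.99, 4.67 and 3.49 at 100 nM and 2.28, 1.5 and 2.91 at 1000 nM. Both doses lay below DMSO (-1.72, SE 0.21, limma adjusted p = 5.83e-05, and -2.28, SE 0.21, adjusted p = 1.11e-06). Its levels in XG1-labelled libraries were 19.7, 18.8 and 29.2 FPKM in DMSO, 15.7, 11.2 and 15.4 at 100 nM and 10.6, 8.46 and 5.83 at 1000 nM. The groups did not overlap, and the decrease passed at 1000 nM (-1.35, SE 0.24, adjusted p = 0.00375) but not at 100 nM (-0.63, SE 0.24, adjusted p = 0.115).

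BUB1B encodes BUBR1, a part of the complex that inhibits the anaphase-promoting complex. In AMO1 it was 7.81, 9.77 and 8.30 FPKM in DMSO, 1.54, 1.29 and 3.44 at 100 nM and 0.848, 0.398 and 0.636 at 1000 nM. It fell at both doses, to 24.3% (-1.70, SE 0.24, limma adjusted p = 0.000168) and 7.27% of DMSO (-2.57, SE 0.24, adjusted p = 1.03e-06). In XG1-labelled libraries it was 39.3, 44.0 and 42.2 FPKM in DMSO, 32.1, 26.9 and 20.8 at 100 nM and 12.8, 13.7 and 10.3 at 1000 nM. These 3 groups stepped down without overlap, and both changes passed (-0.65, SE 0.18, adjusted p = 0.0384 and -1.70, SE 0.18, adjusted p = 0.000241). The 100 nM call was lost on the relative scale (adjusted p = 0.0548), with no filter on low values (0.0875), with a constant prior variance (0.0585), in 1 fit of all 18 libraries (0.0589), and without any 1 of DMSO replicates 1, 2 and 3, 100 nM replicates 2 and 3 and 1000 nM replicate 2 (0.0526 to 0.116). A readthrough gene, BUB1B-PAK6, shares its exons in the GENCODE annotation and has no row of its own.

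TTK encodes MPS1, the kinase that starts checkpoint signalling at unattached kinetochores. In AMO1 it was 6.21, 8.29 and 7.99 FPKM in DMSO, 0.662, 0.635 and 1.35 at 100 nM and 0.764, 0.0568 and 0.339 at 1000 nM. The 2 doses overlapped, and the value of 0.0568 lay under that library's floor. The changes were -2.19 (SE 0.22, limma adjusted p = 1.45e-05) and -2.64 (SE 0.22, adjusted p = 4.95e-07). In XG1-labelled libraries TTK was 13.6, 14.8 and 22.9 FPKM in DMSO, 6.59, 10.4 and 4.73 at 100 nM and 5.77, 3.76 and 4.72 at 1000 nM. Every treated library was below DMSO and the doses overlapped, with changes of -1.16 (SE 0.28, adjusted p = 0.022) and -1.64 (SE 0.28, adjusted p = 0.00303). The 100 nM call was lost with no filter on low values (adjusted p = 0.0812), without DMSO replicate 3 (0.0988) and without 100 nM replicate 3 (0.0633). TTK was the member with the lowest share of DMSO left at 100 nM in both lines, 11.8% in AMO1 and 42.2% in XG1.

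NEK2, which loosens the link between centrosomes before the spindle forms, was 14.4, 16.0 and 16.5 FPKM in AMO1 in DMSO, 2.82, 4.61 and 3.22 at 100 nM and 1.28, 1.56 and 2.57 at 1000 nM. It fell at both doses (-1.89, SE 0.21, limma adjusted p = 2.96e-05, and -2.60, SE 0.21, adjusted p = 3.53e-07). In the XG1-labelled line it was 40.6, 37.3 and 43.8 FPKM in DMSO, 35.3, 24.3 and 31.4 at 100 nM and 14.9, 17.9 and 13.5 at 1000 nM. The groups did not overlap, and the decrease passed at 1000 nM (-1.35, SE 0.17, adjusted p = 0.000637) and not at 100 nM (-0.42, SE 0.17, adjusted p = 0.135).

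PLK4, the kinase that starts centriole duplication, fell close to the lowest measurable values. In AMO1 it was 4.5, 4.62 and 4.07 FPKM in DMSO, 0.733, 0.778 and 1.18 at 100 nM and 0.128, 0.508 and 0.141 at 1000 nM, where 2 libraries stood near their library's floor. On the log2(FPKM + 1) scale, which understates changes of such low values, the decreases were -1.52 (SE 0.19, limma adjusted p = 5.55e-05) and -2.11 (SE 0.19, adjusted p = 6.71e-07). The XG1-labelled values were 8.22, 7.46 and 8.53 FPKM in DMSO, 6.66, 3.80 and 4.39 at 100 nM and 2.73, 1.48 and 2.24 at 1000 nM. All groups were separate, with a decrease at 1000 nM (-1.54, SE 0.24, adjusted p = 0.0018) and a change at 100 nM that did not pass (-0.64, SE 0.24, adjusted p = 0.107).

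**Figure D2:**
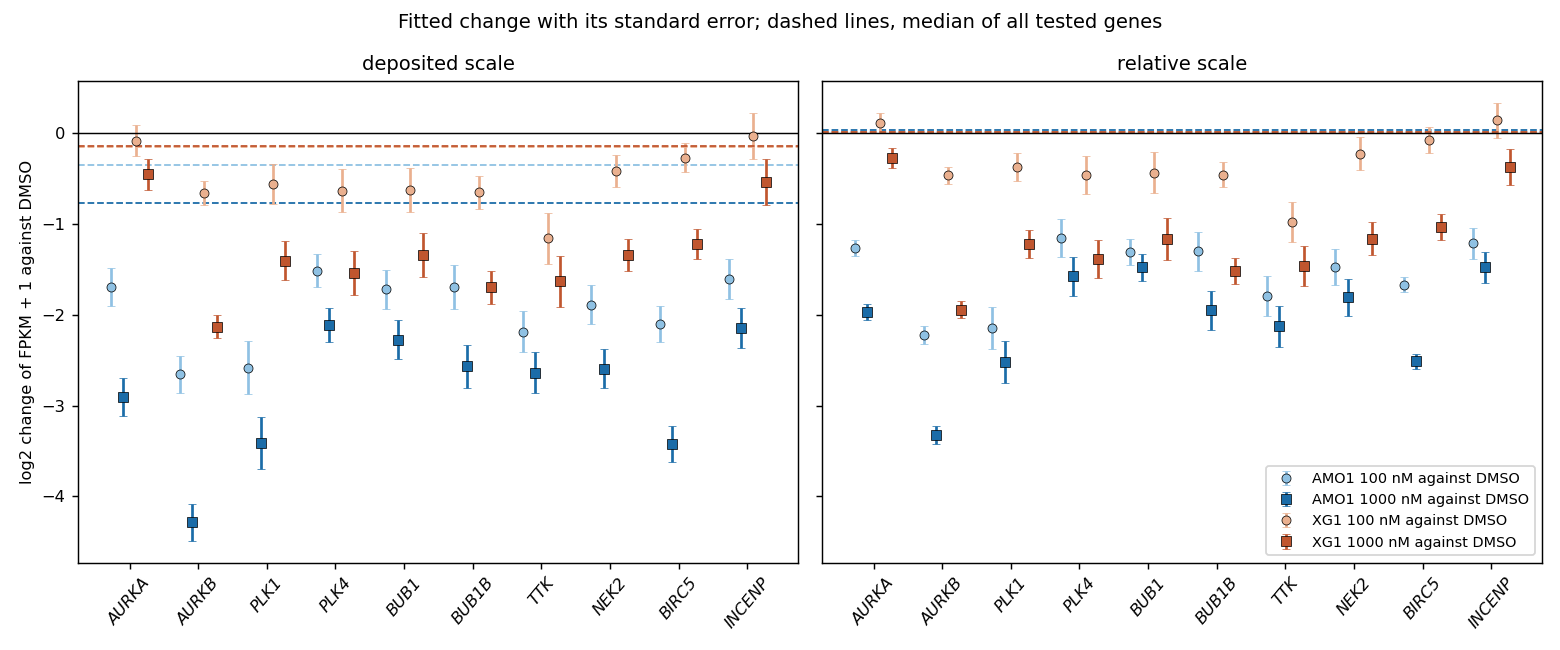
Fitted log2 change of FPKM + 1 against DMSO, with its standard error, for each gene at both doses in both lines, on the deposited scale (left) and the relative scale (right); dashed lines are medians of all tested genes. AURKB has the lowest value at 1000 nM in both lines (-4.28 and -2.13 on the deposited scale), and AURKA and INCENP lie nearest to 0 in XG1 at that dose (-0.46 and -0.54). The added 1 FPKM shrinks the changes of genes at low levels.

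Between the doses, 7 of 10 genes were lower at 1000 nM than at 100 nM in AMO1, against 23.4% of tested genes, and 3 of 10 in XG1, against 0.322%. The 7 were AURKA, AURKB, PLK1, PLK4, BUB1B, NEK2 and BIRC5. On the log2(FPKM + 1) scale they ran from -0.60 for PLK4 to -1.63 (SE 0.20, limma adjusted p = 0.000809) for AURKB. PLK1 stood at the threshold (-0.83, SE 0.29, adjusted p = 0.0499). That scale understates changes of low values. The PLK4 mean at 1000 nM, near the floor, was 0.289 of that at 100 nM, against 0.317 for AURKB. Of the 7, 3 passed on the relative scale, against 4.22% of tested genes, with AURKA at -0.70, AURKB at -1.10 and BIRC5 at -0.84. The count was 4 without AMO1 100 nM replicate 1, 3 without 100 nM replicate 3, and 4 without AMO1 1000 nM replicate 2. In XG1 the 3 were AURKB (-1.47, SE 0.13, adjusted p = 0.001), BIRC5 (-0.95, SE 0.16, adjusted p = 0.0372) and BUB1B (-1.05, SE 0.18, adjusted p = 0.0372). PLK1 joined them on the relative scale, where 0.805% of tested genes were lower. Leaving out 1 XG1 library took the XG1 count to 1 in 7 of the 9 cases, all but 100 nM replicate 3 and 1000 nM replicate 1, and AURKB was the gene that remained in each.

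**Figure D3:**
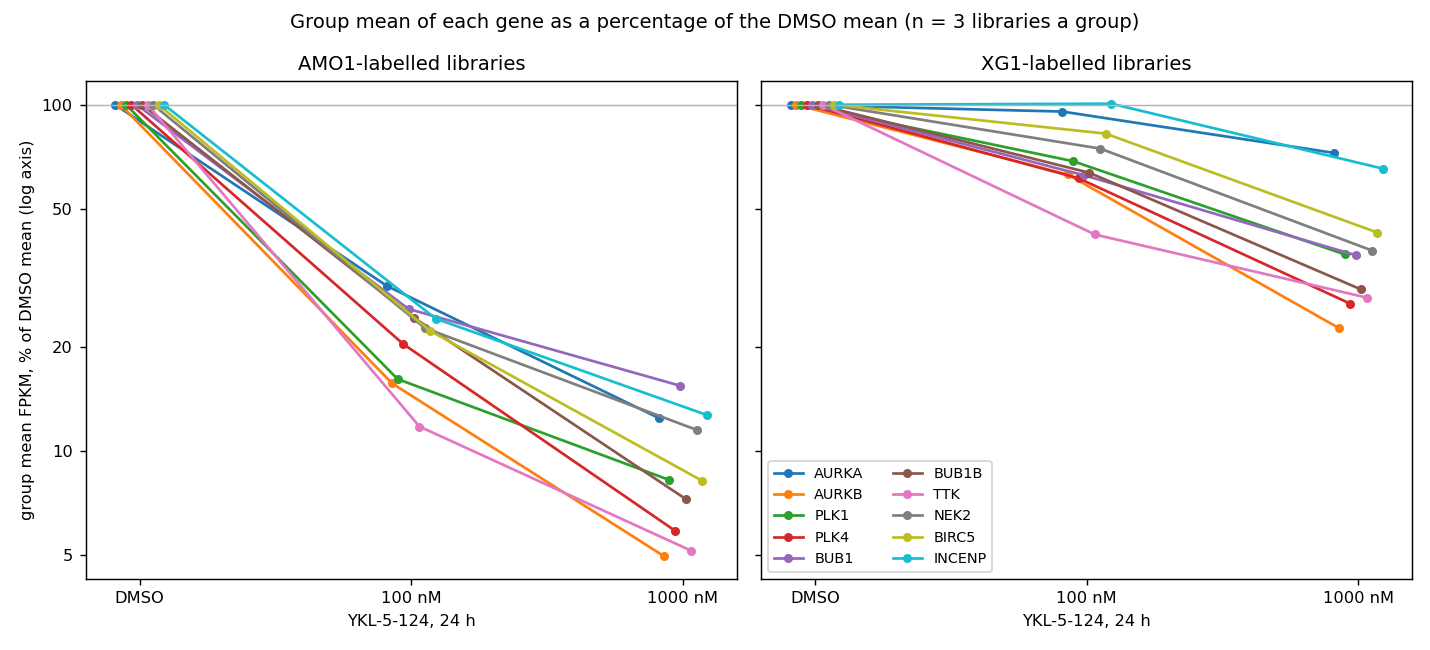
Group mean FPKM of each gene as a percentage of its DMSO mean (log axis) at DMSO, 100 nM and 1000 nM, for AMO1 (left) and XG1 (right), n = 3 libraries a group. In AMO1 every line is at or below 30.0% at 100 nM, whereas in XG1 the lines spread from 42.2% to 101% at that dose.

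The lines' responses were compared as the XG1 change minus the AMO1 change, which is above 0 where XG1 fell less. At 1000 nM this difference passed for 9 of 10 genes, against 32.8% of tested genes, and at 100 nM for 6 of 10, against 5.37%. With 1 FPKM added to each value, which shrinks the changes of low genes, it was largest for AURKA (2.45, SE 0.25, limma adjusted p = 6.82e-06), BIRC5 (2.20, SE 0.24, adjusted p = 1.05e-05), AURKB (2.15, SE 0.21, adjusted p = 4.1e-06) and PLK1 (2.0, SE 0.40, adjusted p = 0.00139). INCENP (1.61), NEK2 (1.25), TTK (1.0), BUB1 (0.93) and BUB1B (0.87) followed, and PLK4 did not pass (0.57, SE 0.28, adjusted p = 0.125). The order depended on that addition. With 0.1 FPKM added, all 10 differences passed, TTK (2.46) came second after AURKA (2.54), and PLK4 was 1.90 (adjusted p = 0.00782). The sizes for TTK and PLK4 rest in part on AMO1 1000 nM values near or under the floor. These were 0.0568 FPKM for TTK in replicate 2, and 0.128 and 0.141 FPKM for PLK4 in replicates 1 and 3. BUB1, BUB1B and TTK lost the call with a replicate block (adjusted p = 0.0637, 0.057 and 0.0864), and 6 members passed without XG1 DMSO replicate 1 or 2, XG1 1000 nM replicate 1, AMO1 DMSO replicate 2 or 3, or AMO1 1000 nM replicate 2. At 1000 nM, 5 passed on the relative scale, against 8.46% of tested genes, namely AURKA (1.67), BIRC5 (1.47), AURKB (1.34), PLK1 (1.30) and INCENP (1.17). At 100 nM the 6 were AURKA, AURKB, PLK1, NEK2, BIRC5 and INCENP on both scales, from 1.47 to 2.02 on the deposited scale, and 5.88% of tested genes passed on the relative scale. The comparison at each dose shares its DMSO libraries with the other dose. The sums of erythroid and plasma cell markers given above also differ between the lines, and their part in these responses was not tested.

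In DMSO, 5 of 10 members were higher in XG1-labelled libraries than in AMO1, against 45.0% of tested genes, and 2 were lower, against 19.8%. These shares are near those of all genes, so the values describe single members only. BUB1B (2.16, SE 0.22, limma adjusted p = 2.13e-07), NEK2 (1.32, SE 0.19, adjusted p = 1.47e-05), TTK (1.07), PLK4 (0.75) and BUB1 (0.59) were higher. AURKA (-0.73, SE 0.18, adjusted p = 0.00193) and AURKB (-0.38, SE 0.15, adjusted p = 0.0371) were lower. The AURKB call was lost without XG1 DMSO replicate 1 or 2 or AMO1 DMSO replicate 2 or 3 (adjusted p = 0.0787 to 0.122). The BUB1 call was lost without XG1 DMSO replicate 3 or any AMO1 DMSO replicate (adjusted p = 0.0504 to 0.178). It was also lost with 0.1 FPKM added (adjusted p = 0.058). BIRC5, INCENP and PLK1 had overlapping ranges in the lines and did not pass, and BIRC5 and INCENP changed sign with the scale (0.21 and 0.11 deposited, -0.10 and -0.16 relative). On the relative scale BUB1B, NEK2 and TTK were higher, 3 genes, against 37.4% of tested genes, and AURKA, AURKB and PLK1 were lower, 3 genes, against 28.3%.

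Genes that work with the members were taken from lists written with earlier results of these data known. At 1000 nM in AMO1, 9 of 9 tested passenger complex partners and cytokinesis effectors were lower (median -2.78), 10 of 10 activators and targets of AURKA and PLK1 (-2.33), 12 of 14 spindle checkpoint partners (-2.63), 7 of 8 centriole duplication partners of PLK4 (-1.17), 11 of 13 regulators of G2/M transcription (-1.37) and 12 of 13 phosphatases and their regulators (-1.11), against 65.7% lower and a median of -0.77 over all tested genes. In XG1 at 1000 nM the lower counts were 7 of 9, 9 of 12, 10 of 15, 1 of 8, 2 of 13 and 3 of 13, against 13.2% of all tested genes, a share that those of the centriole partners and the regulators were near. A further list held relatives of the members with other roles, such as PLK3, NEK9, BIRC2 and XIAP. Of 13 tested in AMO1, 4 were lower, with a median of -0.24, and in XG1 0 were lower and 1 was higher, with a median of -0.09. On the relative scale 7 of these 13 relatives were higher and 1 lower in AMO1, where 24.9% of all tested genes were higher and 24.1% lower, so their direction depended on the scaling. The lower counts there were 9 of 9 passenger partners, 10 of 10 activators and targets, 10 of 13 checkpoint partners with 1 higher, 4 of 8 centriole partners with 1 higher, 8 of 13 regulators with 1 higher, and 5 of 13 phosphatases with 2 higher.

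PRC1, which bundles the central spindle for cytokinesis, was 37.5 ± 2.23 FPKM in AMO1 in DMSO and 2.91 ± 0.672 at 1000 nM (mean ± SD, n = 3), a change of -3.31 (SE 0.20, limma adjusted p = 2.7e-08). KIF2C, the microtubule depolymerase that AURKB controls at centromeres, changed most clearly of its list in XG1 (-1.43, SE 0.16, adjusted p = 0.00033). TPX2, the activator of AURKA, fell by 3.19 on the log2 scale in AMO1 from 55.2 ± 2.68 FPKM to 5.22 ± 1.06, and in XG1 from 84.1 ± 3.38 to 47.8 ± 6.04 (-0.81). The difference between the lines was 2.38 for TPX2 and 2.45 for AURKA. TACC3, a spindle protein that AURKA phosphorylates, was lower in XG1 (-1.08, SE 0.15). SPC25, of the kinetochore NDC80 complex, changed by -3.72 (SE 0.23) in AMO1, and CDC20, the activator of the anaphase-promoting complex that the checkpoint inhibits, by -1.79 (SE 0.15, adjusted p = 6.3e-05) in XG1.

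STIL, the PLK4 partner that recruits SAS-6 to new centrioles, was 19.5 ± 2.4 FPKM in AMO1 in DMSO and 1.84 ± 0.636 at 1000 nM (-2.87, SE 0.20), whereas in XG1 it went from 26.2 ± 1.14 to 21.8 ± 2.62 and did not pass (-0.26, SE 0.21, limma adjusted p = 0.44). SASS6, which builds the cartwheel of the centriole, was the centriole gene that was lower in XG1 (-1.0, SE 0.19, adjusted p = 0.0047). MASTL, the Greatwall kinase that restrains PP2A in mitosis, was lower in AMO1 (-1.54, SE 0.19), and PPP1CC, a catalytic subunit of PP1, in XG1 (-0.89, SE 0.12). FOXM1, a transcription factor of G2/M genes, was 15.1 ± 1.81 FPKM in AMO1 in DMSO and 0.933 ± 0.301 at 1000 nM (-3.06, SE 0.23). In XG1 FOXM1 was 8.6 ± 0.806 and 4.59 ± 0.677 and did not pass (-0.79, SE 0.28, adjusted p = 0.075), and its difference between the lines was 2.27. MYBL2, the B-MYB subunit that joins the MuvB complex on these promoters, was lower in XG1 (-1.01, SE 0.21, adjusted p = 0.0083). Among the relatives NEK6 was lower in AMO1 (-1.39, SE 0.21), and NEK9, its upstream kinase, was higher in XG1 (0.59, SE 0.18, adjusted p = 0.044). PLK3 differed between the lines by 1.06 and PPP1CA, another PP1 subunit, by 1.07, and neither difference passed on the relative scale.

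**Figure D4:**
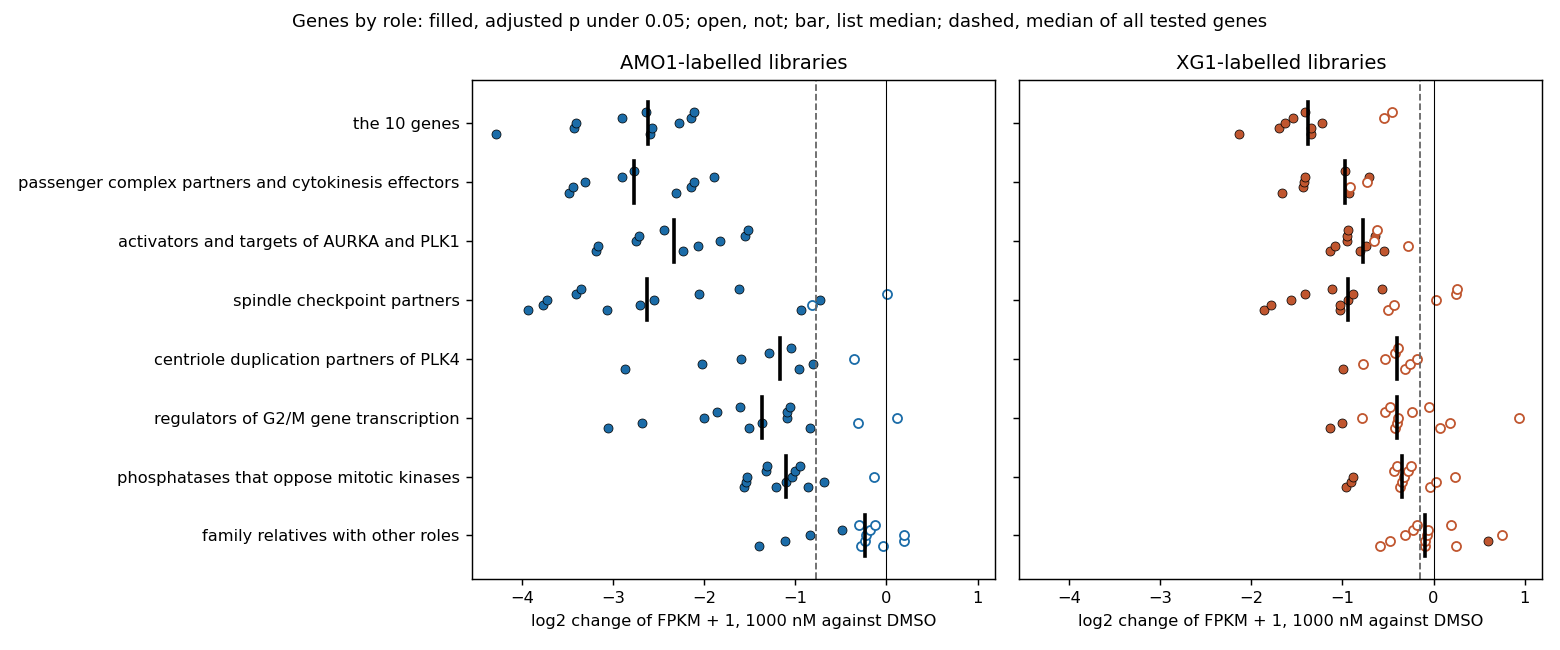
Log2 change of FPKM + 1 at 1000 nM against DMSO for each tested gene of the 10 and of 7 lists by role, in AMO1 (left) and XG1 (right); filled points passed the limma test, bars are list medians and the dashed line is the median of all tested genes. The list medians in AMO1 run from -2.78 for passenger partners to -0.24 for relatives with other roles.

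The members varied together over the libraries, as a description with no test. On the relative scale, with each line centred on its mean, a gene's Pearson correlation with the mean of the other 9 over 18 libraries was highest for AURKB (0.985) and BIRC5 (0.978) and lowest for INCENP (0.890). Over the 9 XG1-labelled libraries it was 0.599 for INCENP and 0.711 for AURKA, against 0.965 and 0.989 over the 9 AMO1 libraries. These points share their dose groups and their libraries. Of 12824 other genes compared, the 5 most like the members' mean were STMN1 (0.995), TUBB (0.993), CKS1B (0.992), CDC20 (0.991) and TMPO (0.988). STMN1 and TUBB encode a microtubule destabiliser and a tubulin, CKS1B a CDK-binding subunit and TMPO a nuclear envelope protein. Mean CKS1B was 1776, 249 and 102 FPKM over the AMO1 groups from DMSO to 1000 nM, and 1312, 898 and 461 FPKM over the XG1 groups.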

How the data were processed

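RNA was measured by 3′ messenger RNA sequencing (QuantSeq) in 18 libraries. The authors deposited FPKM made with HISAT2 alignment to hg19 and Cuffnorm, per the submitters' processing notes; tool versions were not given. Each library held 26341 rows, 26249 genes and 92 spike-ins. The level spike-in sums appear to reflect a rescaling that no source describes. No value was 0: each library had a floor of 0.0711 to 0.158 FPKM, 5120 genes stood at it in all libraries, and read depth is unknown, so precision comes from replicates alone. FPKM divides by length although 3′ tags do not scale with it, so levels of different genes were not compared.

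Libraries were grouped from their labels. log2(FPKM + 1) was fitted with limma 3.58.1 (R 4.3.3; mean-dependent prior variance, two-sided), on the 9 libraries of a line, or all 18 for comparisons between lines, for genes reaching 1 FPKM in 3 or more libraries, with Benjamini-Hochberg adjustment over 10503 genes in AMO1, 11810 in XG1 and 12792 in all. The script was tested on simulated data. Alternatives were median-ratio scaling, a pseudocount of 0.1, no filter, constant prior variance, a replicate block, leaving out each library, and 1 fit of all libraries. The members, lists and tests were chosen with earlier results of these data known. Named list genes had the smallest adjusted p of their list in AMO1 or XG1 at 1000 nM or in the difference between lines, or passed against most of their list. Reads of processed pseudogenes of AURKA, BUB1 and NEK2, which have no rows, may be counted with these genes. The use of strand in counting is not given in the sources.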

Additional observations from a re-analysis of the deposited data

Results flagged for a closer look

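For 9 members the response to 1000 nM differed between the lines by the interaction test in limma, with XG1 falling less than AMO1. The difference on the log2 scale was 2.45 for AURKA, 2.15 for AURKB, 2.0 for PLK1, 0.93 for BUB1, 0.87 for BUB1B, 1.0 for TTK, 1.25 for NEK2, 2.20 for BIRC5 and 1.61 for INCENP. At 100 nM it differed for 6 members: 1.61 for AURKA, 1.99 for AURKB, 2.02 for PLK1, 1.47 for NEK2, 1.83 for BIRC5 and 1.57 for INCENP. The relative-scale differences of BUB1, BUB1B, TTK and NEK2 at 1000 nM did not pass. BUB1, BUB1B and TTK also lost the call at 1000 nM with a replicate block, and when some single libraries were left out. Of all tested genes, 32.8% passed in the same direction at 1000 nM and 5.37% at 100 nM. The median of this difference over all tested genes was 0.55 at 1000 nM and 0.17 at 100 nM.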

How the results depend on the processing

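In AMO1, all 10 members were lower than in DMSO at both doses under every alternative run, and 8 to 9 were lower in XG1 at 1000 nM. In the main fit 65.7% of all tested genes were lower in AMO1 at 1000 nM, 29.5% at 100 nM, and 13.2% in XG1 at 1000 nM. Over single members, 1449 values kept their direction and side of the threshold, 112 lost the call, 20 gained it and 9 changed sign. On the relative scale the members lower between AMO1 doses numbered 3, the members that differed between lines at 1000 nM 5, and those higher in XG1 in DMSO 3. The shares of all tested genes on that scale were 4.22%, 8.46% and 37.4%. The lower genes overall were then 2528 in AMO1 at 1000 nM, 1791 at 100 nM, 444 between the AMO1 doses and 95 between the XG1 doses, and 1086 genes differed between lines at 1000 nM. With no filter the members lower were 3 between AMO1 doses, 1 in XG1 at 100 nM and 1 between XG1 doses. Genes lower were 1796 in AMO1 at 100 nM, 500 between AMO1 doses, 914 in XG1 at 1000 nM, 549 at 100 nM and 5 between XG1 doses, and 12389 of 26249 were higher in XG1 in DMSO. With no filter, genes at the floor are tested too. The floor was 0.117 to 0.140 FPKM in the XG1 DMSO libraries and 0.0727 to 0.0971 FPKM in those of AMO1. The part of this floor difference in the 12389 was not tested. Between XG1 doses a constant prior variance gave 1 member and 1 gene, and 1 fit of all 18 libraries gave 5 members and 72 genes.

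Leaving out 1 library, members lower ran from 3 to 8 between AMO1 doses, 1 to 4 in XG1 at 100 nM (1 without DMSO replicate 3), 1 to 3 between XG1 doses, and 1 to 2 in XG1 against AMO1 in DMSO. Members that differed between lines ran from 6 to 9 at each dose, with 6 at 1000 nM without XG1 DMSO replicate 1 or 2, XG1 1000 nM replicate 1, AMO1 DMSO replicate 2 or 3, or AMO1 1000 nM replicate 2. Genes lower ran from 1606 to 4603 in AMO1 at 100 nM, 507 to 3421 between AMO1 doses, 756 to 1994 in XG1 at 1000 nM, 415 to 1636 at 100 nM and 2 to 78 between XG1 doses, and genes that differed between lines at 100 nM from 368 to 1237. The cause of these shifts was not tested.

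Signs changed only where no call was made. In XG1 at 100 nM AURKA was 0.11 on the relative scale and ran from -0.20 to 0.10 when a library was left out, highest without 100 nM replicate 3. INCENP was 0.13 on the relative scale and ran from -0.31 to 0.15 when a library was left out, with 0.05 without DMSO replicate 3, 0.04 without 100 nM replicate 1 and 0.15 without 100 nM replicate 3. In DMSO, BIRC5 was -0.10 and INCENP -0.16 on the relative scale, and INCENP ran from -0.051 (without AMO1 DMSO replicate 3) to 0.25.

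Same-numbered libraries of a line had deviations that correlated from -0.123 to 0.0856 in AMO1 and from -0.0532 to 0.149 in XG1. Not every pair was over 0.1 and no label ties the numbers to a shared source, so the numbers were not taken as pairs. The mean correlation was higher with the own number in 2 of 9 AMO1 libraries but in 8 of 9 XG1 libraries. Deviations from a mean of 3 libraries depend on each other, so these 9 are not separate counts. XG1 numbers may still share something, which these counts cannot decide. With a replicate block, genes lower between AMO1 doses were 1429, genes that differed between lines at 100 nM 454, and members lower in XG1 in DMSO 1. Under the block PLK4 between AMO1 doses (adjusted p = 0.0587), BUB1, BUB1B and TTK in the difference at 1000 nM (0.0637, 0.057 and 0.0864), and AURKB and BUB1 in DMSO (0.0673 and 0.0555) missed the threshold.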
